A study of Mus musculus with 3 samples.

Results

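MiR-126 was followed through the growth of the mouse retina, in 1-day-old (P1), 7-day-old (P7) and 17-day-old (P17) pups. Its 4 mature forms, mmu-miR-126a-3p, mmu-miR-126a-5p, mmu-miR-126b-3p and mmu-miR-126b-5p, were chosen by name among the 1915 mature microRNAs (miRNAs) listed for each age. Retinas of C57BL/6 mice (C57BL/6J in the study's methods) were dissected with no treatment named in the labels, the retinas of 5 eyes were pooled at each age, and 1 small RNA library was sequenced from each pool. The libraries of P1, P7 and P17 held between 11426320 and 12759995 miRNA reads. No age had a replicate library, so no difference between ages could be set against the spread between animals, and every interval given here is a 95% interval that covers counting error alone. PCR copies were not told apart by molecular identifiers, so reads are not independent molecules. Levels are RPM, reads per 1000000 miRNA reads of the library, so each level is a share and depends on all other miRNAs in the same library.

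MiR-126 is carried in an intron of Egfl7, a gene for a protein that endothelial cells secrete, and it is known as the miRNA most closely tied to the endothelium, the inner lining of blood vessels. Its 3p strand is known to repress Spred1 and Pik3r2, inhibitors of signalling downstream of vascular endothelial growth factor (VEGF), and its 5p strand is known to repress Dlk1 in endothelial cells. In the mouse, the superficial vessels of the retina spread from the optic nerve head after birth, and the deeper vessel layers sprout from them later. The comparison of ages asks which miRNAs are regulated as the retina develops, and the ages span this period of vessel growth. Only miRNAs were measured here, so the protein-coding markers of endothelial cells could not be read, and the cell source of miR-126 in these pools was not checked against them.

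The sequences show how the 4 forms relate to each other. The Mir126a hairpin (ENSMUSG00000065540) lies on the plus strand of GRCm38, the build also called mm10, at chr2:26591357-26591429. It lies within Egfl7 (ENSMUSG00000026921, chr2:26580014-26593120, plus strand). In the coding transcripts of Egfl7 with 10 exons the hairpin is in intron 7, which runs from 26591064 to 26591663. Of 19 annotated transcripts, 8 place the hairpin in an intron, 1 transcript with a retained intron places it in an exon, and the others do not span it. The Mir126b hairpin lies on the minus strand at chr2:26591363-26591420, opposite the Mir126a hairpin, and its 58 bases are the exact reverse complement of that stretch. RefSeq gives 3 of the 4 mature sequences on GRCm38.p6, printed here 5′ to 3′ with the seed, bases 2 to 8, in capitals, and miR-126a-5p was not matched. The hairpins are shown with the matched mature forms in capitals.
miR-126a-3p: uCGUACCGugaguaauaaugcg
miR-126b-5p: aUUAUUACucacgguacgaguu
miR-126b-3p: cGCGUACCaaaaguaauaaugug
Mir126a hairpin: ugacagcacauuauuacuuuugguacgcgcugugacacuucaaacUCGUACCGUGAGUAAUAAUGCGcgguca
Mir126b hairpin: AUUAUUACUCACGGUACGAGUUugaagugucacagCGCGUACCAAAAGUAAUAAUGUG

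MiR-126a-3p and miR-126b-5p face each other over 19 bases, and all 19 are complementary. A read of one therefore matches the other only if strand is ignored. MiR-126a-3p and miR-126b-3p share a run of 10 bases, AGUAAUAAUG, outside both seeds. No other mature name among the 1679 in the RefSeq table carried the seed of miR-126a-3p, and none carried its bases 2 to 7. The seeds of miR-126b-3p and miR-126b-5p were likewise found under no other name of the table. The seed of miR-126a-5p was not searched, and the table holds fewer names than the 1915 miRNAs listed.

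MiR-126a-3p was the main form at every age, and its level rose at both steps. The P1 library held 13994 of its reads, the P7 library 45262 and the P17 library 96661. These reads corresponded to 1225 RPM in the P1 pool (Wilson interval 1205 to 1245), 3547 RPM in the P7 pool (3515 to 3580.0) and 8290.2 RPM in the P17 pool (8238 to 8342). No interval overlapped that of another age. In percent of all miRNA reads, miR-126a-3p made up 0.122%, then 0.355% and finally 0.829%. Its place in the order of all listed miRNAs moved from 84 to 30 and then to 22.

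MiR-126a-5p, the strand from the other arm of the same hairpin, followed the same course at a lower level. The P1 pool gave 417 reads of it, the P7 pool 1218 and the P17 pool 2801. In RPM this form stood at 36.5 on P1 (33.2 to 40.2), 95.45 on P7 (90.2 to 101.0) and 240.2 on P17 (231.5 to 249.3). These intervals did not overlap either. The form ranked 325, 190 and 129 in the order of age.

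The forms of miR-126b, read from the opposite strand, were below the floor of 3 reads at every age. MiR-126b-3p had 2 reads at P1, or 0.18 RPM, and 0 reads at P7 and P17. MiR-126b-5p had 0 reads at all 3 ages. The floor of 3 reads corresponded to between 0.235 and 0.263 RPM, so no fold is given for miR-126b and levels below the floor were not detectable at this depth. Of all reads listed for the locus, the share of miR-126b was 0.0139% of 14413 reads at P1 (exact binomial interval 0.00168% to 0.0501%). It was 0 of 46480 reads at P7, where the floor of 3 reads is 0.00645% and the exact binomial upper bound 0.00794%. At P17 it was 0 of 99462 reads, with a floor of 0.00302% and an exact upper bound of 0.00371%. Although the 2 hairpins overlap, reads of miR-126a-3p were thus not also listed under miR-126b-5p. Only the forms of miR-126a averaged 1 RPM or more across the libraries, the filter that 648 miRNAs passed.

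**Figure D1:**
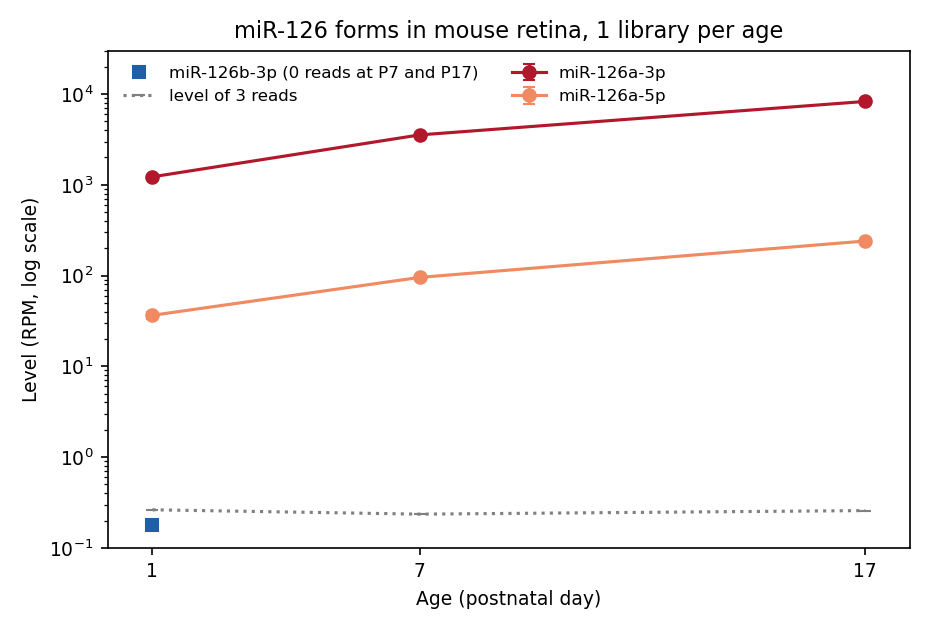
Level of the miR-126 forms in RPM (log scale) against age in postnatal days, with 1 library per age and bars for 95% Wilson intervals, which are mostly smaller than the points. MiR-126a-3p and miR-126a-5p run nearly parallel from 1225 to 8290.2 RPM and from 36.5 to 240.2 RPM, while miR-126b-3p at P1 lies under the dotted level of 3 reads.

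At P1 the level of miR-126a-3p could not be told from those of its neighbours in the order of levels. MiR-186-5p directly above it had 1238 RPM (1218 to 1259) and miR-300-3p directly below it had 1213 RPM (1193 to 1234). At P7 it lay apart from both neighbours, miR-127-3p at 3985 RPM (3951 to 4020.1) and miR-181d-5p at 3412 RPM (3380.1 to 3444). At P17 it lay below miR-30a-5p, at 8495 RPM (8442 to 8548), and had passed miR-127-3p, at 6957 RPM (6909 to 7005). The intervals of miR-126a-5p overlapped those of both of its neighbours at all 3 ages. RPM was not divided by length, because a read covers a whole mature miRNA. Differences in ligation between miRNAs can alter such orders and were not tested.

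From P1 to P7, miR-126a-3p was 2.90-fold higher (exact binomial interval 2.84 to 2.95) and miR-126a-5p 2.62-fold higher (2.34 to 2.93). From P7 to P17, miR-126a-3p was 2.34-fold higher (2.31 to 2.36) and miR-126a-5p 2.52-fold higher (2.35 to 2.69). From P1 to P17 the rise was 6.77-fold (6.65 to 6.89) for miR-126a-3p and 6.58-fold (5.94 to 7.31) for miR-126a-5p. Each of these changes exceeded the counting error of the libraries. In bulk retina, more endothelial cells and more miR-126 per cell cannot be told apart.

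To read these rises against the rest of the retina, changes of all 648 miRNAs past the filter were taken on the log2(RPM + 1) scale, and a change of over 2-fold on that scale was called higher or lower. Between P1 and P7 most miRNAs fell in RPM, and their median log2 change was -0.87. MiR-126a-3p changed by 1.53 and miR-126a-5p by 1.36. Both were called higher, as were 3.09% of the 648, that is 20 miRNAs. They ranked 9 and 12 by the size of the rise. Between P7 and P17 the median log2 change was -0.05, and 14.0% of the miRNAs were called higher. MiR-126a-3p changed by 1.22 and miR-126a-5p by 1.32, in places 75 and 64, so the second step set them less apart from other miRNAs. With library totals that left out the 13 miRNAs among the 10 most abundant of any library, the second step of miR-126a-3p was 0.98 and no longer over 2-fold.

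Over the whole span the log2 level of miR-126a-3p changed by 2.76 and that of miR-126a-5p by 2.69, in places 17 and 21 of 648. Over this span 10.5% of the miRNAs were called higher and 46.8% lower, with a median log2 change of -0.91. Relative to that median, miR-126a-3p rose by 3.67 and miR-126a-5p by 3.60 on the log2 scale. Expressed per day, the log2 level of miR-126a-3p rose by 0.256 a day over the 6 days from P1 to P7 and by 0.122 a day over the 10 days from P7 to P17. For miR-126a-5p the rates were 0.227 and 0.132 a day. Of the log2 rise from P1 to P17, 55.6% lay before P7 for miR-126a-3p and 50.8% for miR-126a-5p.

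Both forms of miR-126a were over 2-fold higher at both steps, as were 1.23% of the 648 miRNAs, or 8 in all. The 6 others were miR-129-2-3p, miR-145a-3p, miR-145a-5p, miR-344d-3p, miR-378a-5p and miR-378b, named because the set is small. The levels of these 6 at P17 ran from 18.3 RPM for miR-145a-3p to 113.9 RPM for miR-378b, against 8290.2 RPM for miR-126a-3p. The fall of most miRNAs at the first step depended on the scaling. Median-of-ratios size factors centre the change of the typical miRNA near 0, and with them miR-126a-3p changed by 2.49, 1.31 and 3.80 over the first step, the second step and the whole span, and miR-126a-5p by 2.30, 1.41 and 3.71. Both forms were then again over 2-fold higher at both steps, as were 3.70% of the miRNAs.

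**Figure D2:**
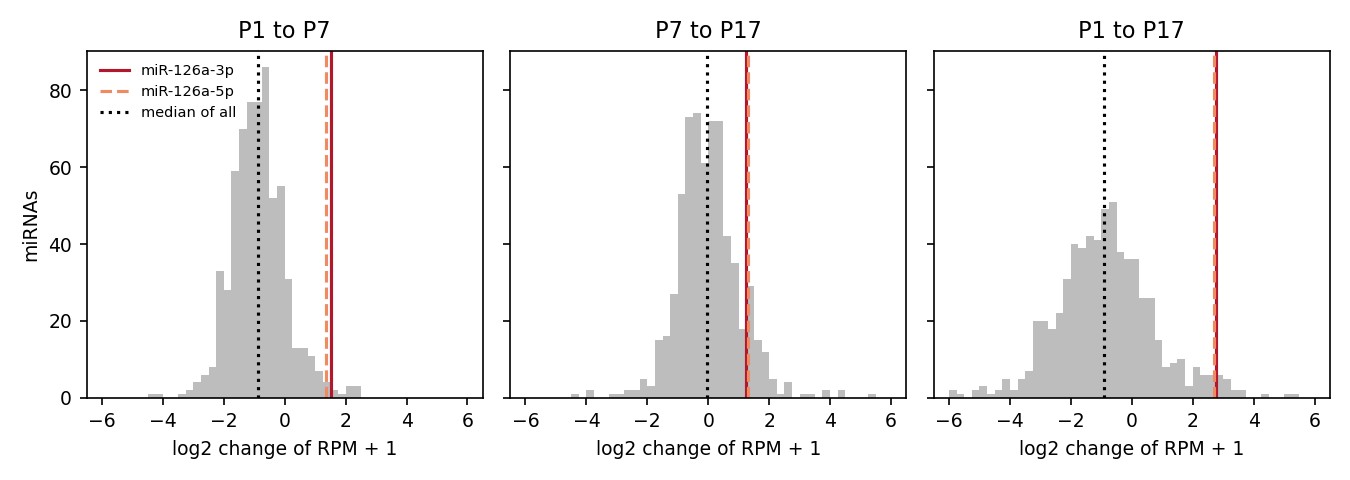
Histograms of the log2(RPM + 1) change of the 648 miRNAs past the filter for each pair of ages (number of miRNAs on the y axis), with lines at the changes of miR-126a-3p and miR-126a-5p and a dotted line at the median. Both lines lie in the upper tail from P1 to P7 (1.53 and 1.36) and from P1 to P17 (2.76 and 2.69), and nearer to the bulk from P7 to P17.

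The balance between the arms of the miR-126a hairpin stayed nearly constant while both arms rose. This ratio compares reads of the same library, so it does not depend on the scaling between libraries. The 3p arm gave 97.1% of the 14411 reads of miR-126a at P1 (exact binomial interval 96.8% to 97.4%). It gave 97.4% of 46480 reads at P7 (97.2% to 97.5%) and 97.2% of 99462 reads at P17 (97.1% to 97.3%). In reads, the ratio of 3p to 5p was 33.6 (30.4 to 37.1) on P1, 37.2 (35.1 to 39.4) on P7 and 34.5 (33.2 to 35.8) on P17. The log2 ratio changed by 0.15 from P1 to P7 (conditional exact interval -0.02 to 0.31), by -0.11 from P7 to P17 (-0.21 to -0.01) and by 0.04 from P1 to P17 (-0.11 to 0.19). The second of these passed the counting error, while the intervals of the others included 0.

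Arm ratios of most other hairpins moved further. In 190 hairpins both arms passed the filter and were read in every library. For these, the median absolute change of the log2 arm ratio from P1 to P17 was 0.71, and the middle 90% of the changes lay between -1.77 and 1.90. Only 9 hairpins, or 4.74%, had a smaller absolute change over this span than miR-126a. From P1 to P7, 39 of the 190 hairpins changed by less, and from P7 to P17, 14 did. The hairpins were not matched to miR-126a for reads. Some had few reads in an arm, such as miR-144 with 13 and 14 reads at P1, against 417 for miR-126a-5p. Their ratios carry more counting error, so the place of miR-126a does not show a steadiness particular to it. Dominance of the 3p arm was not the rule, since the 3p arm gave more reads in 83 of the 190 hairpins at each age. At P1 the arms of a hairpin differed by a median absolute log2 ratio of 3.43, against 5.07 for miR-126a, and 54 of the 190 hairpins were more one-sided. Among these 190, miR-126a and miR-145a were the hairpins in which both arms were over 2-fold higher at both steps, a pair counted after the values were seen.

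**Figure D3:**
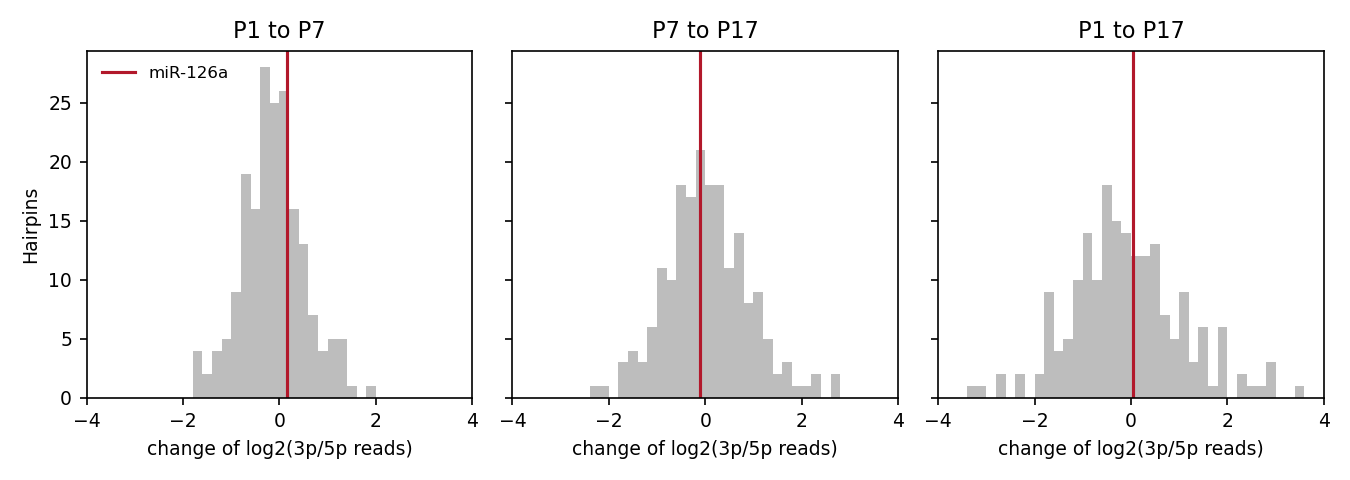
Histograms of the change in log2 ratio of 3p to 5p reads for 190 hairpins between each pair of ages (number of hairpins on the y axis), with a line at miR-126a. The line stays near 0 in every panel (0.15, -0.11 and 0.04), whereas the middle 90% of hairpins lay between -1.77 and 1.90 from P1 to P17. The hairpins were not matched for reads.

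The miRNAs nearest to miR-126a in time course were sought among the 201 miRNAs that averaged 100 RPM or more, by the Euclidean distance between their log2 changes at both steps. Over these 3 libraries the nearest to each form was the other form, at a distance of 0.20. Next to miR-126a-3p came miR-183-5p (0.65), an abundant miRNA of photoreceptors and other sensory cells, then miR-99a-5p (0.81), miR-143-3p (0.97) and let-7b-5p (1.01). Next to miR-126a-5p came miR-183-5p (0.77), miR-143-3p (0.79), miR-99a-5p (0.82) and miR-190b-5p (0.85). Thus the arms of the hairpin were closer to each other than to any other miRNA searched. MiR-126a-5p was in the search only through the P17 library, where it was highest (240.2 RPM, against 36.5 on P1 and 95.45 on P7). Its place as the nearest to miR-126a-3p is therefore no support for a shared course. Rarer miRNAs were not searched, and some lay closer to both forms than miR-183-5p did. Among them were miR-145a-3p, with log2 changes of 1.13 and 1.59 at the steps, and miR-378b, with 1.49 and 1.69. A match of time courses over 3 points is a description only.

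Mural cells, the pericytes and smooth muscle cells around vessels, are known for miR-143 and miR-145a, and these miRNAs rose with miR-126a. All 4 listed forms were called higher from P1 to P17, against 10.5% of all 648 miRNAs, with a median log2 change of 2.82 and a range of 2.32 to 3.04. They are the arms of the miR-143 and miR-145a hairpins, so they do not count as 4 independent members. This list and those below were chosen with earlier results of these data known, so their shares are descriptions and not tests. The 4 forms together made up 198.6 RPM in the P1 pool, 383.9 RPM in the P7 pool and 1522 RPM in the P17 pool. MiR-143-3p, the most abundant of them, gave 2166 reads on P1, 4634 on P7 and 16790.0 on P17. Its rise was 1.92-fold from P1 to P7 (1.82 to 2.02) and 3.97-fold from P7 to P17 (3.84 to 4.10). In RPM, 32.0% of its log2 change lay before P7, against 55.6% for miR-126a-3p. For miR-145a-5p, with 62, 167 and 606 reads at P1, P7 and P17, this share was 37.2%. These shares depended on the scaling, and with median-of-ratios size factors they were 47.7% for miR-143-3p, 49.3% for miR-145a-5p and 65.6% for miR-126a-3p.

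Ratios within a library show the difference in timing without any scaling. Reads of miR-126a-3p per read of miR-143-3p numbered 6.46 at P1 (6.17 to 6.76), 9.77 at P7 (9.48 to 10.1) and 5.76 at P17 (5.66 to 5.85). The ratio rose 1.51-fold from P1 to P7 (conditional exact interval 1.43 to 1.60) and was 0.589-fold of that at P17 (0.569 to 0.610). Against miR-145a-5p the ratio was 225.7 at P1 (176 to 295), 271 at P7 (233 to 317) and 159.5 at P17 (147 to 173). Its change from P1 to P7, 1.20-fold, had an interval of 0.882 to 1.62 and was not detectable at this depth, whereas from P7 to P17 it was 0.589-fold (0.493 to 0.700). MiR-126a-3p was therefore highest relative to both mural miRNAs at P7, beyond counting error on both sides for miR-143-3p and on the P17 side alone for miR-145a-5p.

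Other miRNAs known for a part in vessel growth did not share one direction. Of 23 on this list, 22 passed the filter, and from P1 to P17, 3 were called higher, 11 lower and 8 neither. Over all miRNAs the shares called were 10.5% higher and 46.8% lower. Some members belong to a cluster, as miR-17-5p, miR-18a-5p and miR-20a-5p do, so the 22 are not independent members. The list's median log2 change was -0.98, close to the -0.91 of all miRNAs. The 3 higher ones were miR-150-5p (3.62), miR-184-3p (2.49) and miR-132-3p (2.13), of which miR-150-5p rested on 6 reads at P1. With 0.53 RPM on P1, 1.80 RPM on P7 and 17.75 RPM on P17, miR-150-5p passed the filter mainly through the P17 library, where it was high. MiR-132-3p is known to promote vessel sprouting by repressing Rasa1. The 11 lower ones included miR-17-5p (-5.83), miR-18a-5p (-5.52) and miR-20a-5p (-5.97) of the miR-17-92 cluster, and miR-10a-5p (-1.71) and miR-10b-5p (-2.38), which are known to favour sprouting by repressing Flt1. MiR-18a-5p was picked for follow-up by the study from these libraries, so its direction is not independent of the list. MiR-210-3p, which is known to be induced in hypoxia, changed by -1.83. MiR-23a-3p and miR-27a-3p, which are transcribed together and are known in endothelial cells, had log2 changes of 0.96 and 0.28 from P1 to P17. In RPM their courses turned at P7. MiR-23a-3p went from 42.3 RPM to 32.8 and 83.1 RPM, and miR-27a-3p from 299.8 RPM to 170.1 and 364.3 RPM. Relative to the median of all miRNAs, the log2 change from P1 to P7 was 0.51 for miR-23a-3p and 0.05 for miR-27a-3p. The turn thus depended on the scaling. MiR-221-3p and miR-222-3p, also known in endothelial cells, had log2 changes of 0.03 and -0.32. Under median-of-ratios size factors 7 of the list were higher and 6 lower, so its balance depended on the scaling.

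Vessels hold blood, and miRNAs known for red blood cells and leukocytes are given beside miR-126a. Of 7 forms listed for red blood cells, miR-486a-5p and miR-486b-5p had equal reads at each age (1311, 1311 and 1454) and were taken as 1 measurement. Of the 6 measurements that remain, 5 passed the filter, and 1 was called higher from P1 to P17 and 0 lower, against 10.5% higher and 46.8% lower over all miRNAs. Their summed level was 164.2 RPM in the P1 pool, 118.3 RPM in the P7 pool and 162.9 RPM in the P17 pool. The members did not move together. MiR-451a, an erythroid miRNA, gave 520 reads on P1, 149 on P7 and 325 on P17, and from P1 to P17 it was 0.612-fold (0.532 to 0.705). MiR-144-3p, which is transcribed together with miR-451a, gave 13, 15 and 52 reads and was the member called higher, at 3.92-fold (2.1 to 7.85). MiR-144-5p, with 14, 17 and 35 reads, was 2.45-fold (1.29 to 4.93). Per read of miR-451a there were 26.9 reads of miR-126a-3p at P1 (24.7 to 29.4), 303.8 at P7 (259 to 359) and 297.4 at P17 (267 to 333). The ratio rose 11.3-fold from P1 to P7 (9.38 to 13.6), and its change of 0.979-fold from P7 to P17 had an interval of 0.801 to 1.19. Against miR-144-3p the ratio rose 2.80-fold from P1 to P7 (1.23 to 6.32), and from P1 to P17 its change of 1.73-fold had an interval of 0.862 to 3.22. How far miR-126a-3p rose against red blood cell miRNAs thus depended on the member taken.

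Of 5 miRNAs listed for leukocytes, 4 passed the filter, with 1 higher and 1 lower from P1 to P17 (10.5% and 46.8% over all miRNAs), and their summed level was 38.8, 31.4 and 45.9 RPM at P1, P7 and P17. MiR-142a-3p, which is found across blood cell lineages, gave 79 reads on P1, 108 on P7 and 99 on P17, and its fold from P1 to P17 was 1.23 (0.904 to 1.67). MiR-126a-3p rose 5.51-fold relative to it over that span (4.05 to 7.49). The member called higher was miR-150-5p, a lymphocyte miRNA, which gave 6, 23 and 207 reads and rose more than miR-126a-3p. Both it and the member called lower, miR-155-5p, are also on the vessel list, so their calls are counted in both lists. Relative to miR-150-5p, miR-126a-3p was 0.20-fold at P17 of its value at P1 (0.0726 to 0.443), so the ratios to these leukocyte miRNAs moved in opposite directions. MiR-223-3p, a myeloid miRNA, had 2, 3 and 7 reads and did not pass the filter. In RPM, from P1 to P17 the summed level changed by -0.01 on the log2 scale for the red blood cell list and by 0.24 for the leukocyte list, against 2.76 for miR-126a-3p. These sums depend on the scaling. At P17 miR-486a-5p made up 124.7 of the 162.9 RPM of the red blood cell list, so that sum mainly follows 1 member.

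MiRNAs of retinal cells moved as well. The 3 photoreceptor forms, miR-183-5p, miR-96-5p and miR-182-5p, were all called higher from P1 to P17 (10.5% over all miRNAs), and their summed level went from 77854 RPM at P1 to 304394 RPM at P7 and 301141 RPM at P17. These 3 forms belong to a cluster, so they are not independent members. Reads of miR-126a-3p per read of miR-183-5p were 0.0442 on P1, 0.0434 on P7 and 0.0681 on P17. Of the 3 neuronal forms, miR-124-3p was called higher (10.5% over all miRNAs), with a log2 change of 3.05, and miR-9-5p (-0.96) and miR-9-3p (-0.58) were not called. MiR-124-3p rose mainly after P7, and miR-126a-3p had 0.793 reads for each of its reads on P1, 1.73 on P7 and 0.649 on P17. Of 8 forms listed for lens, cornea and other epithelium, 6 passed the filter, with 1 higher and 5 lower, against 10.5% and 46.8% of all miRNAs. One of the 5, miR-205-5p, with 31, 4 and 8 reads, averaged over 1 RPM through the P1 library alone and is no support for a fall. The higher one was miR-184-3p, which is also on the vessel list and stood at 100.7 RPM on P1, 119 RPM on P7 and 568.9 RPM on P17. The part of changes in these cell types in the rise of miR-126a was not tested.

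**Figure D4:**
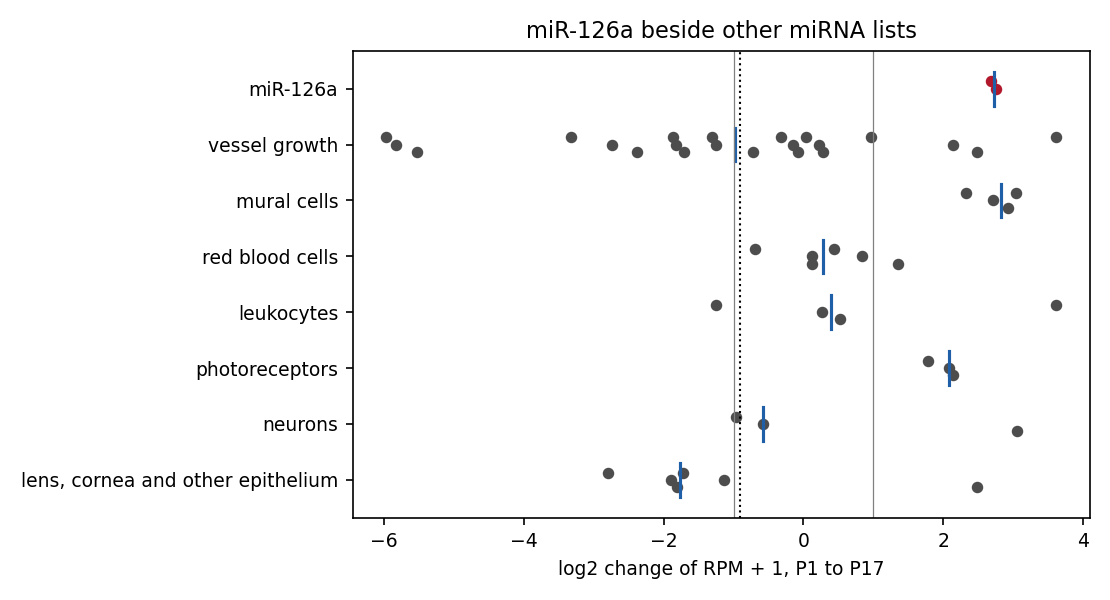
Log2(RPM + 1) change from P1 to P17 of the forms of miR-126a (top row, 2.76 and 2.69) and of the listed miRNAs past the filter, with 1 point per miRNA, a blue bar at each list's median, grey lines at 2-fold and a dotted line at the median of all 648 miRNAs (-0.91). The mural cell list, with a median of 2.82, lies closest to miR-126a.

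**Figure D5:**
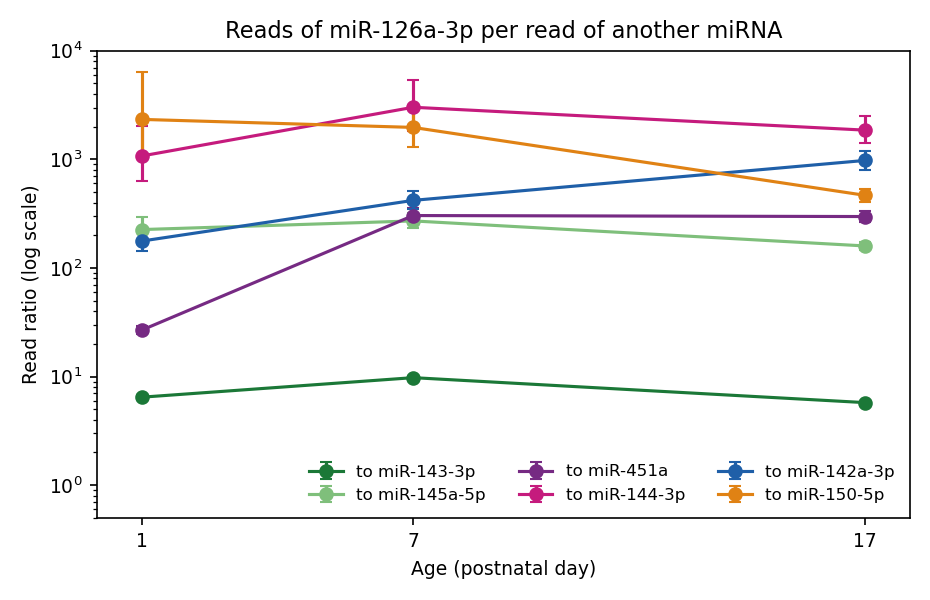
Reads of miR-126a-3p per read of another miRNA in the same library (log scale) against age in postnatal days, with bars for 95% exact binomial intervals. The ratio to miR-143-3p is highest at P7 (9.77), the ratio to miR-451a rises from 26.9 to 303.8 by P7 and is 297.4 at P17, and from P1 to P17 the ratio to miR-142a-3p rises to 976.4 whereas that to miR-150-5p goes from 2332 to 467.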

How the data were processed

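Small RNA libraries were made from total RNA of pooled retinas with a NEBNext kit. Per the study's methods, reads of 50 nt were trimmed of adaptors, cleared of poor reads and aligned to mm10 by the authors with HISAT2, whereas the submitters' processing notes name BWA and FastQC. The counting rule, and whether it used strand, are not given in the sources used here. The authors deposited a read count for each mature miRNA, without normalization, and RPM, which equals the count per 1000000 of the library's summed miRNA counts to within 0.0192 RPM.

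Differences were taken on log2(RPM + 1) for the 648 miRNAs that averaged 1 RPM or more. The pseudocount understates changes of rare miRNAs. The study tested differential expression by fold and adjusted p-value. With 1 library per age no test could be made, and only the fold of 2 was used. Folds and ratios printed as such used reads without a pseudocount. RPM intervals are Wilson, shares and ratios exact binomial, and changes of a ratio conditional exact intervals. One read was worth 0.0784 to 0.0875 RPM. Named miRNAs were the forms of miR-126, the listed miRNAs, the 5 nearest in time course to each miR-126a form and neighbours in level. The members and lists were chosen with earlier results of these data known. Alternatives were other scalings (size factors from 644 miRNAs, TMM from edgeR 4.0.16), pseudocounts, filters and fold criteria. Scripts were tested on simulated data. R was version 4.3.3 and Python version 3.11.15, with scipy 1.17.1 for intervals, pandas 2.3.3 and numpy 2.4.6 for tables and matplotlib 3.10.9 for plots.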

Additional observations from a re-analysis of the deposited data

How the results depend on the processing

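The direction of miR-126a held in all 36 alternative values of its log2 changes, and 35 of these were over 2-fold. Of the 36 values, 20 moved beyond counting error, each under another scaling, and the cause was not tested further. Changes are given over the first step, the second step and the whole span where they moved. With median-of-ratios size factors they were 2.49, 1.31 and 3.80 for miR-126a-3p, and 2.30 and 3.71 (first step and whole span) for miR-126a-5p. With TMM factors they were 2.52, 1.25 and 3.77, and 2.33 and 3.68. Once the reads of the 13 miRNAs among the 10 most abundant of any library were dropped from every total they were 2.16, 0.98 and 3.14, and 2.00, 1.08 and 3.08. With the miR-183, miR-182 and miR-96 reads left out they were 1.94 and 3.16 (first step and whole span), and 1.77 and 3.09. None of the 12 alternative values of the arm ratio and none of the 8 for the nearest time courses moved. Neither outcome shows robustness. The arm-ratio alternatives added too few reads to move the ratio. The alternatives for the nearest time courses were rescalings, which shift the changes of all miRNAs almost equally and so hardly alter distances between them.

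The numbers of miRNAs called over all 648 depended on the scaling. From P1 to P7, 20 were higher and 290 lower with RPM, against 62 and 73 under median-of-ratios scaling and 63 and 68 with TMM factors. They numbered 49 and 149 without the 13 most abundant miRNAs named above, and 39 and 185 with the miR-183, miR-182 and miR-96 reads left out. From P1 to P17, 68 were higher and 303 lower with RPM, against 165 and 155 under median-of-ratios scaling and 163 and 157 under TMM. From P7 to P17, 75 were lower, against 149 without those 13 miRNAs and 44 with a pseudocount of 5 RPM. A fold criterion of 1.5 gave 41 higher over the first step, and 147 higher and 177 lower over the second. A fold criterion of 4 gave 6 higher and 56 lower over the first step, 17 and 14 over the second, and 38 and 141 over the whole span.

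Among the lists, from P1 to P17, median-of-ratios and TMM factors each gave 7 higher and 6 lower for vessel growth (3 and 11 with RPM), 4 higher for red blood cells (1 with RPM, both miR-486-5p names counted) and 3 higher and 0 lower for leukocytes (1 and 1). The lower epithelial miRNAs numbered 1 and 2 under these scalings (5 with RPM). Either reduced total gave 2 higher for red blood cells and 0 lower for leukocytes. Depth limits miR-126b, which stayed below 3 reads. No replicate could be left out. No paired analysis was possible because a single library stood for each age.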

Other observations

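The 6 miRNAs that were over 2-fold higher at both steps beside miR-126a were named after their values were seen. MiR-129-2-3p, from a hairpin known to be expressed in neurons, gave 116 reads on P1, 328 on P7 and 1312 on P17. MiR-378a-5p, which is carried in the gene of the metabolic coactivator Ppargc1b, had 93, 474 and 1225 reads, and miR-378b had 133, 441 and 1328. MiR-344d-3p had 51, 153 and 510 reads. MiR-145a-3p, from the hairpin of the mural miR-145a, had 22, 69 and 213 reads, and its rise from P1 to P7 (2.81-fold, exact binomial interval 1.72 to 4.77) is the least precise of the set.

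The epithelial miRNAs miR-200a-3p, miR-200b-3p and miR-200c-3p were lower at P7 than at P1, with log2(RPM + 1) changes of -2.51, -2.34 and -2.07, from 125, 151 and 198 reads at P1. These 3 rested on at most 43 reads in either later library. From P1 to P7 the median change of all 648 miRNAs was -0.87 and 290 were called lower in RPM, a number that depended on the scaling. On the same list, miR-203-3p (-0.75) and miR-184-3p (0.24) were not called.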
